A study of Homo sapiens with 6 samples.

Results

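Expression of 53 genes of growth factor signalling was described in Hep-3B cells, a human hepatocellular carcinoma line, with and without knockdown of NXN (nucleoredoxin, a redox-active protein). The 53 genes were listed by name: 12 receptors (the co-receptor KLB included), 5 ligands, 7 adaptors and RAS proteins, 5 kinases of the MAPK cascade, 9 feedback inhibitors, 7 subunits of the transcription factor AP-1 and 8 other immediate-early genes or ERK targets. All 53 were found among the 23406 features of the deposited tables through their Ensembl identifiers, and 52 passed the filter on low counts. The study held 6 RNA sequencing libraries in 2 groups. Cells had received lentivirus carrying either a control hairpin (shControl, 3 libraries) or shRNA against NXN (shNXN, 3 libraries), and both groups had been selected with puromycin and grown in medium with serum. Each group was sampled on days 7, 9 and 11, with 1 library per group and day, so replicates 1, 2 and 3 are the 3 days. The genotype was given as WT in both groups. The study used more than one hairpin against NXN, and which of them these libraries carry is not given in the sources used here. The sources used here do not say whether the libraries came from separate cultures, so the p-values measure the spread between libraries taken on different days. Where the day was entered as a block, the p-values instead measure the spread of the daily differences between the groups. Levels are in CPM (counts scaled to the size of the library) for comparing libraries and in FPKM, which is scaled to transcript length, for comparing genes. The log2 fold change of shNXN over shControl (log2FC) is given ± its standard error. A set of 6 values is given in the order of days 7, 9 and 11.

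Receptor tyrosine kinases bind growth factors outside the cell and are phosphorylated on their inner tails, where adaptors such as GRB2 and SHC1 dock and bring the exchange factor SOS1 to RAS. Active RAS recruits the RAF kinases, which phosphorylate the MEK kinases (MAP2K1, MAP2K2), and these phosphorylate the ERK kinases. ERK raises the transcription of immediate-early genes such as FOS and EGR1 within minutes, and also that of the DUSP phosphatases, Sprouty (SPRY) and SPRED proteins, which dampen the same pathway. In liver, FGF19 acts through FGFR4 and KLB to restrain bile acid synthesis, and EGFR and MET take part in regeneration.

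NXN, the target of the shRNA, was at 181, 138 and 143 CPM in shControl cells and at 42.7, 47.5 and 39.5 CPM in shNXN cells. The 3 shNXN values all lay below the 3 controls, and NXN fell, with a log2FC of -1.83 ± 0.16 (edgeR adjusted p = 0.0378). An exact two-sided permutation test gave p = 0.1, the smallest that 3 against 3 libraries allow. The libraries held 15349382 to 16332589 counts. All 10 hepatocyte markers examined were above 1 CPM in each library, and their summed level was between 17400 and 21500 CPM in shControl cells, 9910 and 9830 CPM on days 7 and 9 in shNXN cells, and 18000 CPM on day 11. ALB (albumin) accounted for that gap, with 9570, 13700 and 6950 CPM in shControl and 1420, 683 and 7250 CPM in shNXN cells. The sum of the other 9 markers was 7870, 7800 and 10400 CPM in shControl and 8490, 9150 and 10800 CPM in shNXN cells. Within that sum AFP followed the pattern of ALB, at 1430, 1280 and 1080 CPM in shControl and 444, 301 and 1060 CPM in shNXN cells. On both days 7 and 9, TTR, APOA1 and FGB were also lower in shNXN cells. APOA2, SERPINA1, HNF4A, KRT8 and KRT18 were higher on both of these days. The 6 markers of other cell types found summed to 58.9 to 78.0 CPM in shControl and 89.3 to 99.8 CPM in shNXN cells, nearly all of it from CD68, a macrophage and lysosome gene. The leukocyte marker PTPRC, the endothelial VWF, and the stromal COL3A1 and ACTA2 were at or near 0. A further stromal marker, COL1A1, was low but present in each library, at 1.31 to 2.64 CPM. The part of these marker levels in the results below was not tested, and in bulk RNA fewer cells of a type and less RNA per cell cannot be told apart.

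Few of the 52 tested members passed the test, and their share was near or under that of all features. GAB1, the docking protein downstream of MET, and BRAF, a RAF kinase, fell with an adjusted p under 0.05 from edgeR, and no member rose. These 2 members were called beside 3.39% of all 14071 features tested (0.185% higher and 3.21% lower), and 11 members were at an unadjusted p under 0.05 beside 32.9% of all features. When the day was entered as a block, 10 members passed, 2 higher (ERBB2, MAPK3) and 8 lower (MET, SOS1, PTPN11, GAB1, NRAS, BRAF, SPRED1, ETV5), beside 23.3% of all features (6.28% higher and 17% lower). The median log2FC of the 52 members was 0.15, beside 0.03 for all features, and 31 members were positive. When fold changes were corrected for the GC content of the transcripts, 0 members passed (edgeR, smallest adjusted p = 0.172, 4 members at an unadjusted p under 0.05, all lower), beside 0.0355% of all features called and 17.1% at an unadjusted p under 0.05. With the block and the GC correction together 0 members passed (edgeR, smallest adjusted p = 0.0961, 8 members at an unadjusted p under 0.05, all lower), beside 0.924% and 21.4%. DESeq2 called 9 members, beside 23.5% of all features, and limma on log2(FPKM + 1) called 0, beside 2.04%, with 11 at an unadjusted p under 0.05, beside 29.5%.

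**Figure D1:**
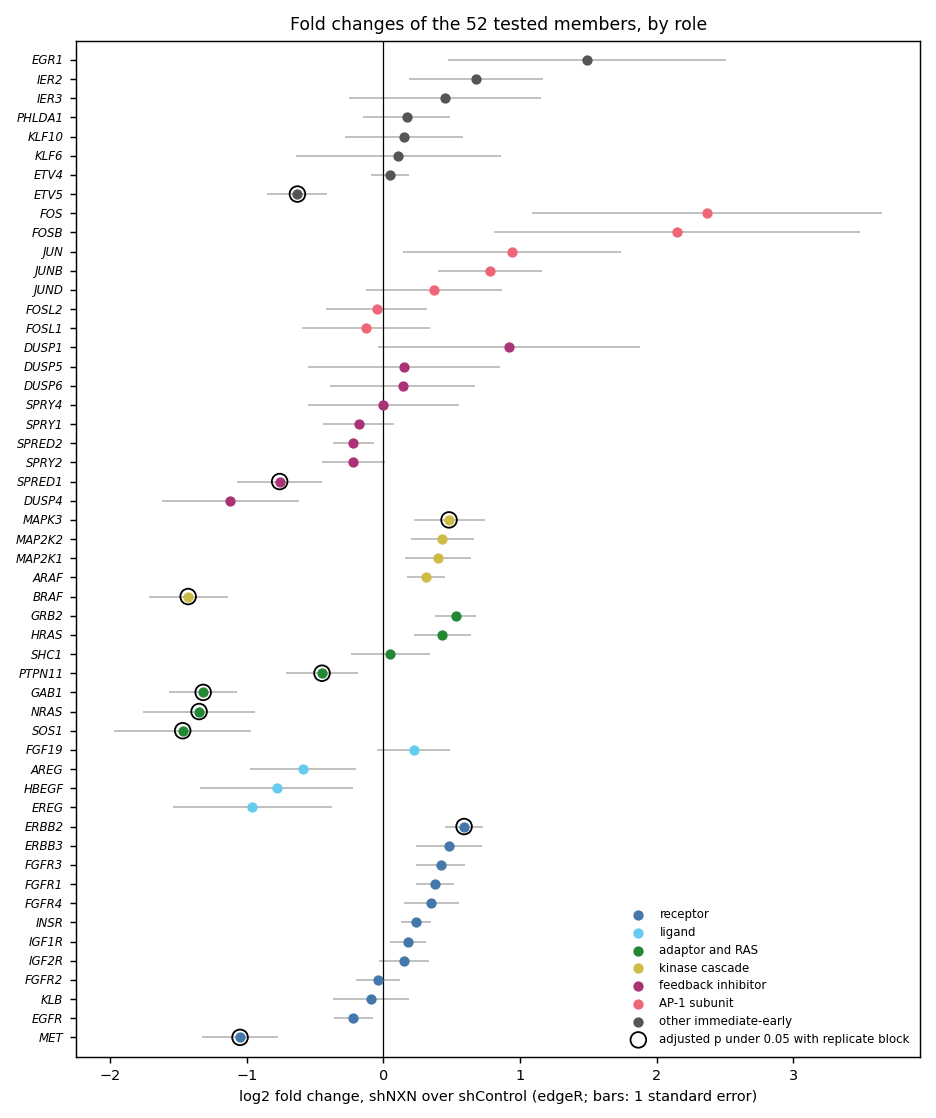
The log2 fold change (shNXN over shControl, horizontal axis, bars of 1 standard error from edgeR) is drawn for the 52 tested members, grouped and coloured by role, with a ring around the 10 members with an adjusted p under 0.05 when the day was a block. The ringed members lie between -1.47 (SOS1) and 0.59 (ERBB2), while FOS and FOSB have the highest values and the widest bars.

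Among the receptors, MET fell and ERBB2 rose in shNXN cells when the day was a block, and the other 10 did not pass. FGFR4, the receptor for FGF19 in hepatocytes, had the highest mean of the receptors, 208 ± 47.7 FPKM (SD, n = 6 libraries), and IGF1R, the receptor for insulin-like growth factors, the lowest, 13.6 FPKM. FGFR4 was at 461, 412 and 287 CPM in shControl and at 528, 522 and 428 CPM in shNXN cells. The groups overlapped, and the log2FC of 0.35 ± 0.20 did not pass (edgeR adjusted p = 0.245). ERBB2, the receptor that pairs with the other ERBB family members, was at 130, 165 and 143 CPM in shControl and at 224, 234 and 202 CPM in shNXN cells. Every shNXN library was thus above every shControl library. ERBB2 had a log2FC of 0.59 ± 0.14 (edgeR adjusted p = 0.0604), and rose by 0.60 with the block (adjusted p = 0.0265, edgeR). MET, the receptor for hepatocyte growth factor (ENSG00000105976), was at 198, 259 and 248 CPM in shControl and at 96.3, 79.1 and 166 CPM in shNXN cells. The 3 shNXN libraries were the lowest, and day 11 lay nearest to the controls. MET had a log2FC of -1.05 ± 0.28 (edgeR adjusted p = 0.0718), and fell by 1.11 with the block (adjusted p = 0.0311, edgeR). The FPKM values of MET on day 11 were 45.0 in shControl and 44.0 in shNXN cells, a smaller gap than on the CPM scale. Over all 12 receptors, 8 had a positive log2 fold change, 5 had every shNXN library above every shControl library (ERBB2, IGF1R, INSR, FGFR1 and FGFR3) and 1 had every one below (MET), beside 19% and 21.5% of all features. EGFR, with a log2FC of -0.22, and FGFR2, with -0.04, did not pass (edgeR adjusted p = 0.312 and 0.874). On the FPKM scale EGFR had the opposite direction, at 48.2, 54.8 and 51.7 in shControl and at 61.4, 66.6 and 56.5 in shNXN cells (difference of 0.25 on the log2(FPKM + 1) scale, limma adjusted p = 0.246).

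**Figure D2:**
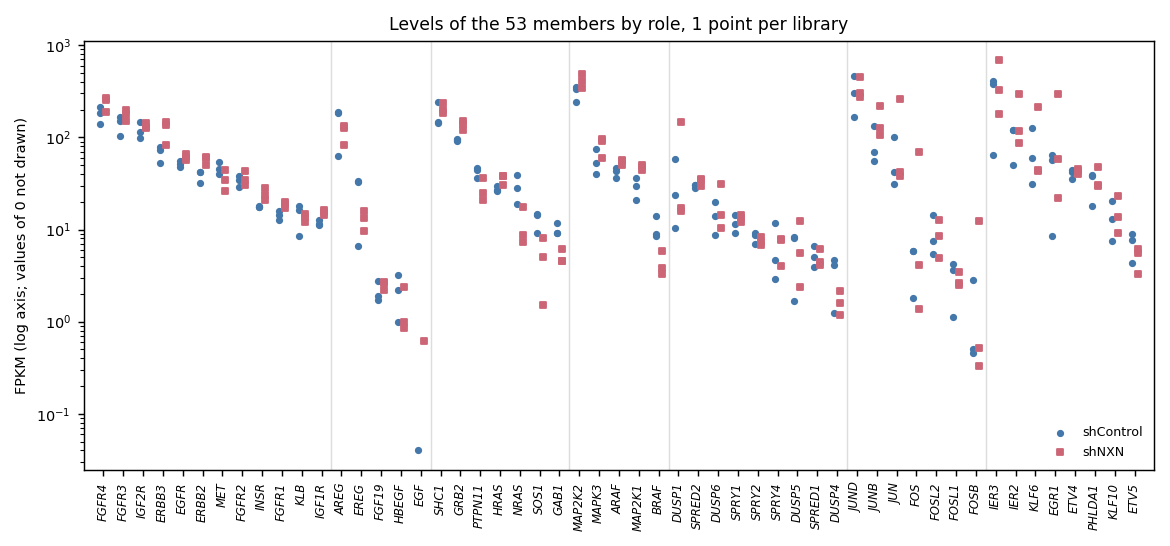
The level of each of the 53 members is plotted in FPKM on a log axis, with 1 point per library (circles shControl, squares shNXN), grouped by role in the order receptors, ligands, adaptors and RAS, kinase cascade, feedback inhibitors, AP-1 subunits and other targets. The means span 0.11 FPKM for EGF to 360 FPKM for MAP2K2, and the points of FOS, FOSB and EGR1 are spread more widely than those of the receptors.

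Among the 5 listed ligands, the EGFR ligand amphiregulin (AREG) was the most abundant at 130 ± 51.2 FPKM (SD, n = 6). Of ligands outside the 53 members, IGF2, MDK and VEGFA had higher means, 537, 523 and 154 FPKM. EGF itself was at the detection limit, with 2 counts in 1 shControl library, 3 counts in 1 shNXN library and 0 in the other 4. AREG was at 157, 60.0 and 152 CPM in shControl and at 84.2, 56.7 and 105 CPM in shNXN cells. It was lowest on day 9 in both groups, and the groups overlapped. Its log2FC of -0.59 ± 0.39 (edgeR adjusted p = 0.312) did not pass. Epiregulin (EREG) and HBEGF, further EGFR ligands, were also lowest on day 9 in both groups and had log2 fold changes of -0.96 and -0.78 (edgeR adjusted p = 0.270 and 0.342). FGF19 stayed between 3.74 and 6.01 CPM in all 6 libraries.

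Among the adaptors and RAS proteins, GAB1 fell, SOS1, NRAS and PTPN11 fell when the day was a block, and no member passed as higher. GAB1 (ENSG00000109458, chr4:143336762-143474568, plus strand of GRCh38 in GENCODE 29) was at 28.1, 30.1 and 37.1 CPM in shControl and at 11.5, 9.81 and 16.9 CPM in shNXN cells. Every shNXN library was below every control. GAB1 fell, with a log2FC of -1.32 ± 0.25 (edgeR adjusted p = 0.0473). SOS1, the RAS exchange factor, was at 55.3, 48.2 and 52.6 CPM in shControl and at 14.0, 7.72 and 34.6 CPM in shNXN cells. The shNXN library of day 11 stood nearer to the controls than to the other 2 shNXN libraries. SOS1 had a log2FC of -1.47 ± 0.50 (edgeR adjusted p = 0.102), and fell by 1.73 with the block (adjusted p = 0.0403, edgeR). NRAS, a RAS GTPase, was at 118, 80.1 and 163 CPM in shControl and at 35.4, 30.0 and 75.9 CPM in shNXN cells. In both groups day 9 was lowest and day 11 highest, and the groups did not overlap. NRAS had a log2FC of -1.35 ± 0.41 (edgeR adjusted p = 0.0832), and fell by 1.42 with the block (adjusted p = 0.0142, edgeR). Its relative HRAS had a log2FC of 0.43 with every shNXN library above every control (edgeR adjusted p = 0.186, and 0.142 with the block).

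PTPN11 encodes the phosphatase SHP2, which aids RAS activation. It was at 196, 173 and 263 CPM in shControl and at 134, 119 and 211 CPM in shNXN cells. The groups overlapped, but on each day the shNXN library was the lower one. PTPN11 had a log2FC of -0.45 ± 0.26 (edgeR adjusted p = 0.255), and fell by 0.47 with the block (adjusted p = 0.0358, edgeR). PTPN11 has processed pseudogenes, and how reads shared with them were assigned is not given in the sources used here. SHC1, the most abundant adaptor at 191 ± 41.8 FPKM (SD, n = 6), was at 295, 252 and 519 CPM in shControl and at 325, 322 and 461 CPM in shNXN cells. Day 11 was highest in both groups, and the log2FC of 0.05 ± 0.29 (edgeR adjusted p = 0.908) was within the spread between libraries. GRB2 was higher in every shNXN library, with a log2FC of 0.53 (edgeR adjusted p = 0.0797, and 0.0593 with the block).

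In the kinase cascade BRAF fell, and MAPK3 rose when the day was a block. BRAF (ENSG00000157764, chr7:140719327-140924928, minus strand) was at 42.2, 46.2 and 38.6 CPM in shControl and at 14.7, 10.3 and 22.1 CPM in shNXN cells. The 2 groups did not overlap. BRAF fell, with a log2FC of -1.43 ± 0.29 (edgeR adjusted p = 0.0494). MAPK3, the kinase ERK1, was at 74.5, 97.0 and 50.7 CPM in shControl and at 108, 119 and 81.7 CPM in shNXN cells. The shNXN library was the higher one on each day, with day 9 highest and day 11 lowest in both groups. MAPK3 had a log2FC of 0.48 ± 0.26 (edgeR adjusted p = 0.234), and rose by 0.51 with the block (adjusted p = 0.0421, edgeR). MAP2K2, the kinase MEK2, had the highest mean of all 53 members, 360 ± 80.6 FPKM (SD, n = 6). It was at 516, 500 and 300 CPM in shControl and at 573, 690 and 511 CPM in shNXN cells. Its log2FC of 0.43 ± 0.23 (edgeR adjusted p = 0.226) did not pass. MAP2K1 and ARAF had log2 fold changes of 0.40 and 0.31 (edgeR adjusted p = 0.263 and 0.169), so 4 of the 5 kinases were positive and BRAF was the exception.

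The calls on GAB1 and BRAF each lost significance in 5 of the 6 fits with 1 library left out. Without the shControl library of day 7, 9 or 11 or the shNXN library of day 7 or 9, the adjusted p values of GAB1 were 0.133, 0.0594, 0.0844, 0.225 and 0.166 and those of BRAF 0.133, 0.0697, 0.0777, 0.226 and 0.162 (edgeR), and 0 members passed in any of these 5 fits. In these 5 fits the log2 fold changes stayed between -1.39 and -1.14 for GAB1 and between -1.44 and -1.20 for BRAF. The loss of calls was not particular to these genes. In the same 5 fits NXN itself had adjusted p values of 0.131, 0.0327, 0.0633, 0.225 and 0.162 (edgeR). Without the shNXN library of day 11, 9 members passed (2 higher and 7 lower), beside 25.8% of all features (4.4% higher and 21.4% lower). GAB1 and BRAF were among these members, with log2 fold changes of -1.58 and -1.76 (edgeR adjusted p = 0.003 and 0.00235).

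**Figure D3:**
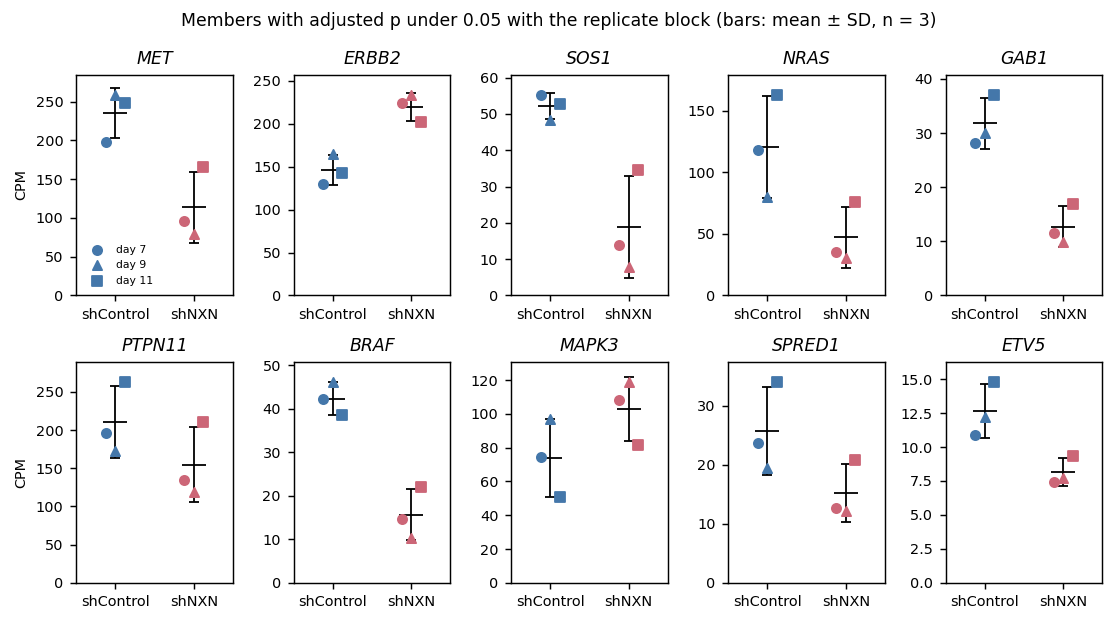
CPM (vertical axis, starting at 0) is plotted for the 10 members with an adjusted p under 0.05 when the day was a block, with symbols for days 7, 9 and 11 and a bar for the mean ± SD of 3 libraries. MET, SOS1, NRAS, GAB1, BRAF and ETV5 show no overlap between lower shNXN and higher shControl values, ERBB2 shows none in the other direction, and for PTPN11, SPRED1 and MAPK3 the groups overlap while the shNXN library differs the same way on each day.

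The feedback inhibitors had 7 of 9 members lowest on day 9 in both groups, beside 18.9% of all features. On day 11, 0 of 9 were higher in shNXN than in shControl cells, beside 7688 of the 14071 features tested. SPRED1, an inhibitor of RAF activation by RAS, was at 23.7, 19.4 and 34.0 CPM in shControl and at 12.7, 12.1 and 20.8 CPM in shNXN cells. The shNXN library was the lower one on each day. SPRED1 had a log2FC of -0.76 ± 0.31 (edgeR adjusted p = 0.138), and fell by 0.76 with the block (adjusted p = 0.0277, edgeR). On the FPKM scale SPRED1 was at 4.99, 3.93 and 6.69 in shControl and at 4.42, 4.17 and 6.07 in shNXN cells, which overlap. DUSP4, a nuclear MAPK phosphatase singled out after its values were seen, was at 24.7, 6.52 and 21.8 CPM in shControl and at 10.4, 5.52 and 8.44 CPM in shNXN cells. It was lowest on day 9 in both groups and had a log2FC of -1.12 ± 0.50 (edgeR adjusted p = 0.165, and 0.0551 with the block). The Sprouty genes SPRY1, SPRY2 and SPRY4 had log2 fold changes of -0.18, -0.22 and 0.00, all with adjusted p over 0.5 from edgeR.

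DUSP1, the immediate-early MAPK phosphatase, was the most abundant of the 9 listed feedback inhibitors (45.3 ± 52.5 FPKM, SD, n = 6) and the most variable between days. It was at 103, 18.5 and 40.4 CPM in shControl and at 247, 27.3 and 30.7 CPM in shNXN cells. The 2 libraries of day 7 were the highest, and that of shNXN cells stood 2.41-fold above that of shControl cells. On days 9 and 11 the ratios were 1.47 and 0.760, and the log2 fold change over all days was 0.92 ± 0.96 (edgeR adjusted p = 0.516).

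The immediate-early genes differed widely between days, and most had their highest level in the shNXN library of day 7. FOS, an AP-1 subunit, was at 8.33, 2.28 and 8.83 CPM in shControl and at 92.1, 2.15 and 6.57 CPM in shNXN cells. One library, that of shNXN cells on day 7, thus stood 10.9-fold above its control, while the ratios on days 9 and 11 were 0.945 and 0.747. FOSB, a further AP-1 subunit, was at 5.11, 0.861 and 1.29 CPM in shControl and at 29.9, 1.16 and 1.16 CPM in shNXN cells. Day 7 was highest in both groups, and its ratio was 5.75. EGR1, a zinc finger factor induced by ERK, was at 188, 24.4 and 162 CPM in shControl and at 821, 61.2 and 171 CPM in shNXN cells. It was lowest on day 9 in both groups, with ratios of shNXN to shControl of 4.37, 2.50 and 1.05. These 3 genes had the largest log2 fold changes of all members, 2.37 for FOS, 2.15 for FOSB and 1.49 for EGR1, but also standard errors of 1.28, 1.34 and 1.02, and none passed (edgeR adjusted p = 0.229, 0.287 and 0.326). With the block the values were smaller, at 1.05 ± 0.89, 1.22 ± 0.60 and 1.18 ± 0.40, and again none passed (edgeR adjusted p = 0.389, 0.168 and 0.0788). Without the shNXN library of day 7 the log2 fold changes without the block became -0.57, -1.05 and -0.10. That fit kept the shControl library of day 7, so the 2 groups no longer covered the same days. It therefore does not give the difference on days 9 and 11, where the ratios of FOSB were 1.32 and 0.908 and those of FOS and EGR1 are given above.

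IER3, a stress-inducible survival gene, had the highest mean of the AP-1 subunits and other targets, 341 ± 214 FPKM (SD, n = 6), and JUND the highest of the AP-1 subunits, 327 ± 115 FPKM. IER3 was at 374, 65.0 and 394 CPM in shControl and at 644, 169 and 325 CPM in shNXN cells. The values of day 9 were the lowest in both groups, and the groups overlapped (log2FC 0.45 ± 0.70, edgeR adjusted p = 0.665). JUND was at 520, 320 and 109 CPM in shControl and at 529, 357 and 336 CPM in shNXN cells. The shControl library of day 11 was the lowest of the 6, and the ratio on that day was 3.09 (log2FC over all days 0.37 ± 0.50, edgeR adjusted p = 0.621). ETV5, an ETS factor downstream of FGF receptors, was at 10.9, 12.2 and 14.8 CPM in shControl and at 7.42, 7.72 and 9.35 CPM in shNXN cells. It was the exception among these genes, with every shNXN library below every control in CPM. On the FPKM scale ETV5 was at 4.29, 9.04 and 7.76 in shControl and at 6.17, 3.26 and 5.57 in shNXN cells. These values overlap, and day 7 goes the other way (limma on log2(FPKM + 1), adjusted p = 0.398). ETV5 had a log2FC of -0.63 ± 0.22 (edgeR adjusted p = 0.110), and fell by 0.63 with the block (adjusted p = 0.0496, edgeR).

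**Figure D4:**
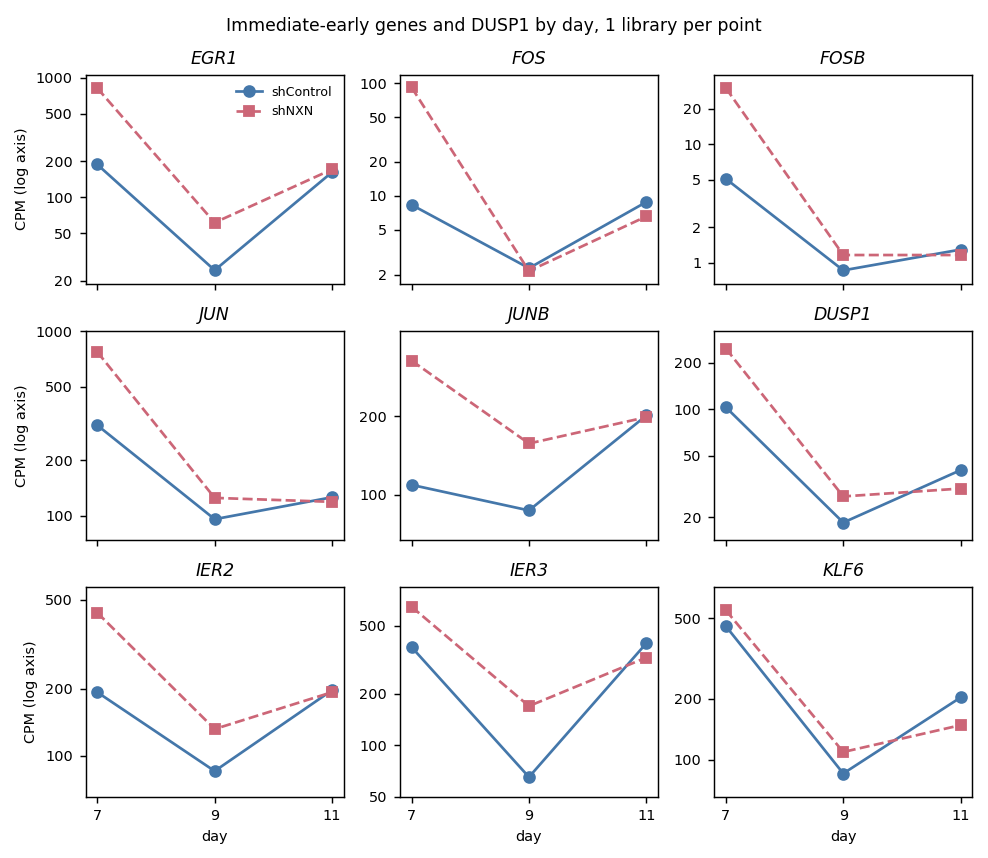
CPM on a log axis is plotted against day for EGR1, FOS, FOSB, JUN, JUNB, DUSP1, IER2, IER3 and KLF6, with 1 library per point (blue circles shControl, red squares shNXN). JUN, JUNB, IER2 and KLF6 were added after their values were seen. The highest point of each of the 9 genes is the shNXN library of day 7, the shControl values of all 9 are lowest on day 9, and the day 11 ratios of shNXN to shControl lie between 0.727 (KLF6) and 1.05 (EGR1).

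As a group, the 15 AP-1 subunits and other immediate-early genes or ERK targets were higher in shNXN than in shControl cells for 11 genes on day 7, 13 on day 9 and 2 on day 11. Of the 14071 features tested, 7037, 7000 and 7688 were higher on these days. Their median log2 ratio was 0.77, 0.40 and -0.19 on the 3 days, beside 0.00, 0.00 and 0.07 for all features. The median GC content of the 15 genes was 56.7%, beside 48.4% for all features. Features with a GC content of 55% or more had a median log2FC of 0.35 over the 3 days, and 6.37% of them were negative. The part of GC content in these counts and ratios was not tested by day. The highest of the 6 libraries was that of shNXN cells on day 7 for 11 of the 15, and for 21 of all 52 members, beside 13.1% of all features. On day 7, 7 members stood over 2-fold above the control (DUSP1, FOS, FOSB, JUN, JUNB, EGR1 and IER2), beside 3.3% of all features, and 7 over 2-fold below (MET, EREG, SOS1, GAB1, NRAS, BRAF and DUSP4), beside 17.7%. Of the 7 above, all but FOS have a GC content of 55% or more. Of the 7 below, all but DUSP4 have one under 43%. Each daily ratio rests on 1 library per group and has no replicate check. The test of a linear change of the group difference with day gave 0 calls among all features from edgeR, with 152 features (1.08%) and 2 members, KLB and JUND, at an unadjusted p under 0.05 (adjusted p = 1 for both).

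Day 9 was the lowest of the 3 days in both groups for 27 of the 52 members, beside 18.9% of all features, and for 10 of the 15 immediate-early genes and ERK targets. Day 7 was the highest in both groups for 17 members, beside 8.41% of all features. EGR1 on day 7 was 7.67-fold above day 9 in shControl and 13.4-fold above it in shNXN cells, and KLF6, a zinc finger factor, 5.35-fold and 5.04-fold. On day 11, IER3 was 6.06-fold above day 9 in shControl but 1.92-fold above it in shNXN cells. Of the 12 receptors, 2 (IGF1R and FGFR1) were lowest on day 9 in both groups, while 5 (IGF1R, FGFR1, FGFR2, FGFR3 and FGFR4) were highest on day 7 in both, and 7 had the highest of their 6 values in the shNXN library of day 7. The linear day term gave 0 calls from edgeR, with 1506 features (10.7%) and 8 members at an unadjusted p under 0.05. With day as a factor of 3 levels, a test chosen after seeing the data, there were again 0 calls (smallest adjusted p of a member 0.108, edgeR), with 3006 features (21.4%) and 28 members at an unadjusted p under 0.05. In this design the day, the culture and the library of a group cannot be told apart.

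The promoters of 4 of these genes are shown because EGR1, FOS, JUN and DUSP1 all had their highest level in the shNXN library of day 7. RefSeq promoter windows were matched for 41 of the 53 members. The 250 bases before the start in GRCh38.p14 were searched on both strands for TGACG, the core of the cyclic AMP response element bound by CREB and ATF factors, for its full form TGACGTCA (which contains TGACG), and for the CArG box, bound by serum response factor. Capitals mark matches to any of these, with CGTCA being TGACG on the other strand. EGR1 is shown at chr5:138465229-138465478 (plus strand), FOS at chr14:75278578-75278827 (plus strand), JUN at chr1:58784048-58784297 (minus strand) and DUSP1 at chr5:172771196-172771445 (minus strand).
EGR1: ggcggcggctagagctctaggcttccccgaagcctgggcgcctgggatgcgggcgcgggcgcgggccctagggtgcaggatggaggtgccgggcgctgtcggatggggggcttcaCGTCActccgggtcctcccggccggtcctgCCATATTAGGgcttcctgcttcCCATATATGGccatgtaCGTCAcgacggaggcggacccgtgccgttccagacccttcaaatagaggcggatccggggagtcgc
FOS: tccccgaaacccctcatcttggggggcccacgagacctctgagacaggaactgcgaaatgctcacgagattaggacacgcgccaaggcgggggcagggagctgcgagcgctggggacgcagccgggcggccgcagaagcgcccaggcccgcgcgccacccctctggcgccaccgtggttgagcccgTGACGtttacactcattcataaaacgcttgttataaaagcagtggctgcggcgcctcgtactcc
JUN: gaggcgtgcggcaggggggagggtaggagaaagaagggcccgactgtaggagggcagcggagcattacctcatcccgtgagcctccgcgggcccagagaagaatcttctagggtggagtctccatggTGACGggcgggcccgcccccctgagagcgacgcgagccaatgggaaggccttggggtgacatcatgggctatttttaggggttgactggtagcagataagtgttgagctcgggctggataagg
DUSP1: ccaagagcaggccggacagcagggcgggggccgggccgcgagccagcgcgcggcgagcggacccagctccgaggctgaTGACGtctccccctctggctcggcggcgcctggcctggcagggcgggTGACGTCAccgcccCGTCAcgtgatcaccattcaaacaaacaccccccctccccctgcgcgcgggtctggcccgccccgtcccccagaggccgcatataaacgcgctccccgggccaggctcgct

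EGR1 held 2 CArG boxes and 2 TGACG matches, FOS and JUN 1 TGACG match each, and DUSP1 4 TGACG matches, of which 2 are the strands of 1 TGACGTCA. TGACG was in the window of 17 of the 41 members and of 8 of the 10 immediate-early genes and ERK targets with a window, beside 21.2% of all 35116 promoters. TGACGTCA was in 3 members (AREG, DUSP1 and JUND), beside 1.65% of all promoters, and the CArG box in 1 member (EGR1), beside 1.16%. These matches describe letters in the window and are not measured binding. Bases further upstream were not searched, so a gene without a match here, such as FOS for the CArG box, may have one outside the window.

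Further genes of the pathway, 96 receptors, ligands, adaptors, kinases, inhibitors and ERK targets outside the 53, were examined in the same way. Of the 81 tested, 4 passed (beside 3.39% of all features): FRS2, the adaptor of FGF receptors, SHOC2, a scaffold that promotes RAF activation, and RPS6KA3, a kinase activated by ERK, were lower, and MKNK2, a further kinase downstream of ERK, was higher. Their log2 fold changes were -1.64, -2.02, -1.22 and 0.72 (edgeR adjusted p = 0.0452, 0.0473, 0.0466 and 0.0492). On the FPKM scale, however, FRS2 was at 9.65, 12.7 and 10.2 in shControl and at 14.4, 12.6 and 6.35 in shNXN cells, which overlap. With the block 18 passed, 5 higher and 13 lower (beside 6.28% and 17% of all features), and the largest changes were -2.59 for RASA2, a RAS GTPase-activating protein, -2.14 for SHOC2 and -1.88 for LAMTOR3, a scaffold for MEK1 (edgeR adjusted p = 0.0151, 0.0147 and 0.0156). With the GC correction 0 of the 81 passed in edgeR, with 10 at an unadjusted p under 0.05 (beside 17.1% of all features). These shares were near or under those of all features. Day 9 was lowest in both groups for 13 of the 22 immediate-early genes and ERK targets tested in this list, beside 18.9% of all features.

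The fold changes of the members followed the GC content of their transcripts, as did those of all features. The limits of 43% and 55% were set after the values were seen. The 8 tested members with a GC content under 43% (EREG, SOS1, GAB1, NRAS, SPRED1, BRAF, PTPN11 and MET) all had negative log2 fold changes, between -1.47 and -0.45, with a median of -1.18. Of all tested features under 43%, 94.3% were negative, with a median of -0.92. Of the 20 members with 55% or more, 1 was negative (FOSL1), with a median of 0.43, beside 6.37% and 0.35 for all such features. ERBB2 and MAPK3, the 2 members higher with the block, have 57.5% and 61.4% GC. After the GC correction GAB1 was at -0.23 and BRAF at -0.57 (edgeR adjusted p = 0.533 and 0.189), and EREG, PTPN11 and SPRED1 turned positive, at 0.50, 0.18 and 0.29. For 5 further members called with the block the correction brought the value nearer to 0. SOS1 was at -0.46, NRAS at -0.30 and MET at -0.48, and ERBB2 at 0.25 and MAPK3 at 0.11 (edgeR adjusted p = 0.489, 0.525, 0.212, 0.365 and 0.849). ETV5, at 48.6% GC, had -0.69 after correction beside -0.63 before it (edgeR adjusted p = 0.172 and 0.110), and FOS, at 52.6%, had 2.09 beside 2.37. DUSP4 and HBEGF, at 51.3% and 50.9% GC, were also lower after the correction, at -1.34 and -0.98 beside -1.12 and -0.78. With the block and the GC correction together, DUSP4 had the smallest adjusted p of the members (0.0961, edgeR, log2FC -1.19). The hepatocyte markers under 43% were ALB, AFP and FGB, at 41.3%, 38.8% and 41.4% GC. Their log2 fold changes were -1.69, -1.07 and -0.50 before the GC correction and -1.19, -0.16 and 0.28 after it. The correction also takes out any GC-dependent difference that arose in the cells, and this cannot be told apart from one that arose in the libraries.

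**Figure D5:**
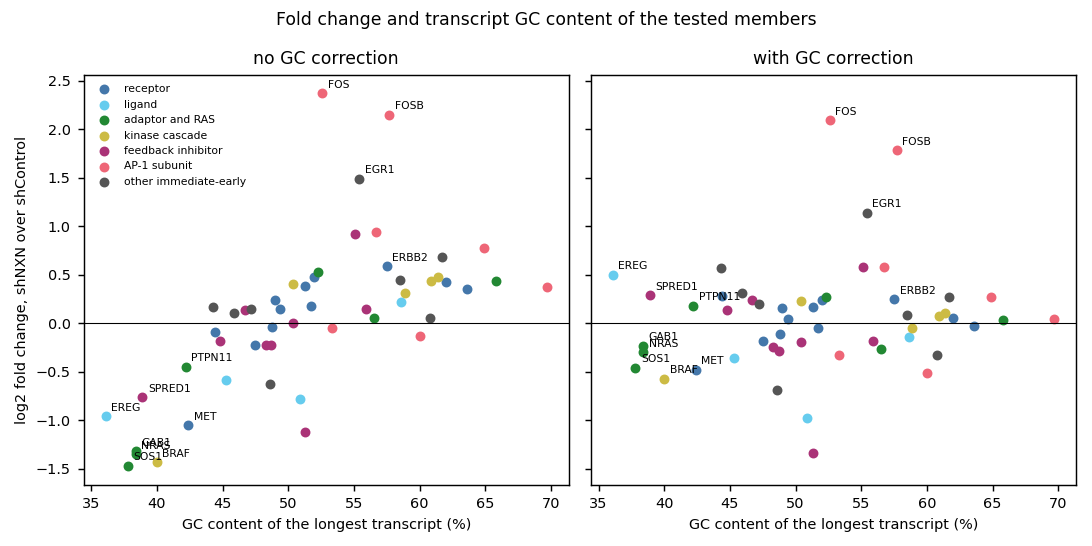
The log2FC of shNXN over shControl (vertical axis) is plotted against the GC content of the longest transcript in percent (horizontal axis) for the 52 tested members, coloured by role, without the GC correction (left) and with it (right). On the left the 8 members under 43% all lie below 0, and on the right 5 of them do.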

How the data were processed

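Hep-3B cells with shControl or shNXN were profiled by RNA sequencing on days 7, 9 and 11. The authors deposited estimated counts per feature and, in a second table, FPKM values for the same features. The aligner, counter, annotation and use of strand are not given in the sources used here. The submitters' processing notes list the mouse builds GRCm38 and mm10, whereas the features carry human Ensembl identifiers. Of 20314 such identifiers, 18966 had a symbol, and 3092 further features were assembled loci. There were 0 columns without a sample and 0 unnamed rows. No replicates differed by less than the sampling noise (chi-square per gene 20.1 to 77.8).

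Counts were rounded and tested over all features with the edgeR 4.0.16 quasi-likelihood test (R 4.3.3, TMM, filterByExpr, Benjamini-Hochberg adjusted p under 0.05). The standard error was the fold change over the square root of F. Alternatives were RLE factors, no filter beyond 1 count, DESeq2 1.42.0, the replicate block, a GC correction (natural spline with 5 degrees of freedom on the longest GENCODE 29 transcript, entered as an offset), limma 3.58.1 on log2(FPKM + 1) and log2(FPKM + 0.1), each library left out, and day as a factor (chosen after seeing the data, with and without the GC correction). Same-numbered replicates share a day by their labels, and their deviations from the group means correlated at 0.30, 0.31 and 0.45 across features, against -0.37 to 0.15 for other pairs. Daily ratios used CPM + 0.1.

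Values in every library are given for members with an adjusted p under 0.05 with or without the block, the most abundant member (FPKM) of each role, and the 3 largest rises and 3 largest falls with a mean of at least 1 CPM. Of the further pathway genes, those with an adjusted p under 0.05 and the 3 largest changes with the block are named. The members, lists and this rule were chosen with earlier results of these data known, and the lists come from general knowledge. Simulated counts with known changes were used to check the edgeR script. All 52 tested members and 90.5% of all features had a transcript GC value. Gene coordinates are from GENCODE 29 and promoters from RefSeq GRCh38.p14.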

Additional observations from a re-analysis of the deposited data

How the results depend on the processing

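The number of members called was 2 without the block and 10 with it (the replicate block, pairing libraries of the same day), 9 with DESeq2 (3 higher, 6 lower, beside 23.5% of all features), 0 with the GC correction, 0 with the block and the GC correction together, and 0 with limma on log2(FPKM + 1) and 0 on log2(FPKM + 0.1), where 11 members were at an unadjusted p under 0.05. RLE factors and no filter on low counts gave 2 each. Leaving out 1 library gave 0 to 9, with the 9 coming without the shNXN library of day 11. Over all features the number ran from 5 with the GC correction, 66 and 287 with limma, 130 with the block and the GC correction, 477 as reported, and 826 and 818 with RLE factors or no filter, to 3272 with the block, 3311 with DESeq2 and 0 to 3706 with 1 library left out. The number of further pathway genes called was 4 as reported, 18 with the replicate block, 14 with DESeq2, 0 with the GC correction, 1 with both, 1 and 0 with limma at the 2 pseudocounts, and 0 to 14 with 1 library left out. The members' median log2 fold change ran from -0.16 (without the shNXN library of day 7) to 0.30 in these last fits. NXN had log2 fold changes between -1.90 and -1.67 with 1 library left out, with adjusted p values from edgeR between 0.00131 and 0.225, and passed in 2 of the 6 fits, those without the shControl library of day 9 or the shNXN library of day 11. The counts of members called for day and for the change of the group difference with day were 0 in every fit run. Among the 20 named members, 227 of 280 alternative values kept their direction and side of the threshold. Values that changed sign were, with the GC correction and with the block and the GC correction together, 0.18 and 0.19 for PTPN11, 0.29 and 0.30 for SPRED1, -0.03 and -0.02 for FGFR4, and -0.27 and -0.23 for SHC1. Without the shNXN library of day 7, the sign turned for 5 members. A fit with 1 library left out no longer holds both groups on each of the 3 days. With 1 library left out, FOS ran from -0.57 to 2.93, FOSB from -1.05 to 3.36, EGR1 from -0.10 to 1.99, DUSP1 from -0.89 to 1.83 and IER3 from -0.17 to 0.85, and SHC1, which turned without the shControl library of day 7 or 9 or the shNXN library of day 11, from -0.14 to 0.49. The cause was not tested. The block changed no other call than those given for the members and the further pathway genes. Depth limits FOSB and HBEGF, near 1 CPM in some libraries, more than EGR1, which had 397 to 13495 counts per library.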
